A study of Mus musculus with 574 samples.

Results

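Tph2, Fev and Slc6a4 are the 3 genes used together to recognise serotonergic neurons, the cells that make and recycle serotonin. They were taken by name from both deposited tables of the series: 3 of 23706 genes in the table of cell pools and 3 of 25489 genes in the table of single cells. The libraries came from the developing ventral midbrain of C57BL/6 mouse embryos, all heterozygous for an Lmx1a-EGFP reporter, and Smart-seq2, which copies whole transcripts into cDNA, was used for all. GFP marks cells in which the floor plate gene Lmx1a drives the reporter. The pools held 100 sorted cells each: 6 pools of GFP+ cells and 6 of GFP- cells at E13.5 (E for embryonic day), and 6 pools of GFP+ and 6 of GFP- cells at E10.5. Of the 550 single cells, E10.5 supplied 24.9%, E11.5 16.4%, E12.5 32.4% and E13.5 26.4%. No treatment or second allele is named in the labels.

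The 3 genes act at successive steps. Tph2 encodes tryptophan hydroxylase 2, the rate-limiting enzyme of serotonin synthesis in neurons. Fev, known as Pet-1 in the mouse literature, encodes an ETS transcription factor that in mice is needed for serotonergic neurons to acquire Tph2 and the transporter. Slc6a4 encodes the plasma membrane transporter that takes serotonin back up, the target of a widely used class of antidepressants. Serotonergic neurons are born in the ventral hindbrain, just behind the isthmus that bounds the midbrain, while the midbrain floor plate marked by Lmx1a gives rise to dopamine neurons. Both kinds of neuron use aromatic amino acid decarboxylase, the vesicular monoamine transporter and a pterin cofactor.

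In GRCm38 with the GENCODE M21 annotation, Tph2 lies on chromosome 10 from 115078641 to 115185022 on the minus strand and its main transcript has 11 exons. Fev lies on chromosome 1 from 74881509 to 74885419 on the minus strand, with 3 exons. Slc6a4 lies on chromosome 11 from 76998603 to 77032340 on the plus strand, with 14 exons. The antisense gene Gm12343 lies inside the span of Slc6a4. Overlap of their exons was not checked, and the authors' counting is not described in the sources used here. Whether reads of Gm12343 entered the Slc6a4 values is therefore not known. The start regions of the 3 genes are shown because all 3 had their highest mean in the E13.5 GFP- pools and 1 of them encodes an ETS factor. Each runs from 250 bases before to 50 bases after the start (RefSeq, GRCm38.p6), 5′ to 3′ on the gene's strand, at chr10:115184973-115185272 for Tph2, chr1:74885359-74885658 for Fev and chr11:76998347-76998646 for Slc6a4. Capitals mark GGAA, the core of ETS sites, and GATA, the core of GATA factor sites, on either strand (TTCC and TATC).
Tph2: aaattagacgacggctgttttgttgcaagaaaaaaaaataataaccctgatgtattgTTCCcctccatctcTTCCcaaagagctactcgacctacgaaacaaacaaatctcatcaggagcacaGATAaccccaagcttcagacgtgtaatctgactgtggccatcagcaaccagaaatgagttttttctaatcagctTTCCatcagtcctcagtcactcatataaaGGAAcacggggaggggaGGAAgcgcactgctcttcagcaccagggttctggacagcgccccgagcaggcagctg
Fev: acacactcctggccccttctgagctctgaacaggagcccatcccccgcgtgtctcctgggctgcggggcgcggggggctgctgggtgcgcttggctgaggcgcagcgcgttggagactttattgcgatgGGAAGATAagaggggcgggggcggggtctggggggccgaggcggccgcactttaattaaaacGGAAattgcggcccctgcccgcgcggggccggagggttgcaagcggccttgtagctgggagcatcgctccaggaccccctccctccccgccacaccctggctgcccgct
Slc6a4: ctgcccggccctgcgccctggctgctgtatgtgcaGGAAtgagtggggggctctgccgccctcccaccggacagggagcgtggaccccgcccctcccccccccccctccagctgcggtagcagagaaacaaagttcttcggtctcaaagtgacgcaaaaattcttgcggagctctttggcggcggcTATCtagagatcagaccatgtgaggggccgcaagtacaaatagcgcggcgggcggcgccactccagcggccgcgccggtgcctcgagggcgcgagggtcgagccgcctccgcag
All 3 windows hold both cores, with 5 GGAA in Tph2, 2 in Fev and 1 in Slc6a4, and 1 GATA in each. This is common: 95.98% of 32851 promoter windows of the same length hold GGAA, 57.9% hold GATA and 55.9% hold both. In the Fev window 1 GGAA directly precedes the GATA. The longer CGGAA occurs only in the Fev window of the 3 (29.9% of windows) and AGATAA, which contains GATA, in the Tph2 and Fev windows (11.2%). The homeodomain core TAATTA was present in the Fev window (5.29% of windows) and TATAAA in the Tph2 window (13.6%), again on either strand. These matches describe letters and not bound sites.

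At E13.5 all 3 genes were found mainly in GFP- pools. Values are RPKM (reads per kilobase of transcript per M reads, as deposited), which is a per-length scale and so allows levels of different genes to be set side by side. Fev was listed at 0 in all 6 GFP+ pools, against a lowest value of 12.2, a median of 27.7 and a highest of 68.1 RPKM in the 6 GFP- pools. The groups did not overlap. The log2 difference of log2(RPKM + 1) was -4.88 ± 0.34 (SE; limma, adjusted p = 1.55e-10), on a scale that understates changes of low genes.

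Tph2 was listed at 0 in 5 GFP+ pools and at 2.28 RPKM in GFP+ pool 4. In GFP- pools its lowest, median and highest values were 0.517, 6.59 and 17.9 RPKM. The groups overlapped through GFP+ pool 4, which lay above 2 of the GFP- pools. The log2 difference was -2.31 ± 0.43 (SE; limma, adjusted p = 0.000867).

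Slc6a4 was at 0.897 RPKM in GFP+ pool 3 and 0.565 in GFP+ pool 4, and listed at 0 in the other 4 GFP+ pools. In GFP- pools its lowest, median and highest values were 0, 5.79 and 40.6 RPKM. GFP- pool 3, with no Slc6a4, accounts for the overlap. Slc6a4 reached 1 RPKM in too few pools for the filter of the fit (at least 1 RPKM in at least 6 of 24 pools), so it was compared by an exact permutation test of the RPKM values. The log2 difference was -2.47 (exact two-sided permutation p = 0.0152, unadjusted, where the smallest possible p is 0.00216).

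In this comparison 593 of 15871 tested genes (3.74%) were lower and 3.42% were higher at an adjusted p under 0.05, 7.15% in all, and the values of 635 genes did not overlap between the groups. Fev and Tph2 were both among the lower genes. Both passed the filter largely through the E13.5 GFP- pools, Tph2 with 5 of its 6 pools over the limit and Fev with 6 of 8, so their count supports nothing. In every comparison the SE pools the spread of the 4 groups. A group at 0 in all its pools narrows it, so limma p-values of these genes may be too small. Exact two-sided permutation p-values here, unadjusted, were 0.00216 for Fev and 0.0173 for Tph2. The labels name no embryo or litter, so p-values reflect spread among the pools alone and that spread may be technical. In pools of 100 cells, fewer cells of a type and less RNA per cell cannot be told apart.

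At E10.5 the genes were at or near 0 in both GFP classes. Tph2 was listed at 0 in all 12 pools. Fev was listed at 0 in the 6 GFP+ pools and in 2 GFP- pools, and at 0.216, 0.626, 1.03 and 2.49 RPKM in the other 4 GFP- pools, about 1, 2, 4 and 9 reads at the estimated depths. The difference, -0.64 ± 0.34, did not pass the test (limma, adjusted p = 0.256), in a comparison that called 8.64% of genes lower and 4.51% higher, 13.1% in all. With a pseudocount of 0.1 it was -2.12 and did (limma, adjusted p = 0.0404). Slc6a4 was at 0.282 RPKM in GFP+ pool 1 and at 0.140 and 0.296 RPKM in GFP- pools 2 and 4, each 3 reads or fewer (exact two-sided permutation p = 0.727).

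Among GFP- pools, Tph2 and Fev rose with age. Tph2 averaged 7.37 ± 6.50 RPKM at E13.5 (SD, n = 6) and was listed at 0 in every E10.5 pool, a log2 difference of 2.59 ± 0.43 (SE; limma, adjusted p = 1.98e-05). That SE is narrowed by the groups at 0. By exact two-sided permutation its p was 0.00216, unadjusted. Fev averaged 33.4 ± 21.1 RPKM at E13.5 and 0.728 ± 0.952 at E10.5 (4.24 ± 0.34; limma, adjusted p = 1.47e-10). Neither gene's values overlapped between the stages. Slc6a4 averaged 10.8 ± 14.9 RPKM at E13.5 and 0.0726 ± 0.123 at E10.5 (exact two-sided permutation p = 0.0152). Between these stages 19.7% of all tested genes were higher and 26.9% lower, 46.6% in all, and 4061 did not overlap, so a stage difference was common. Tph2 and Fev entered the fit largely through the E13.5 GFP- pools, so their calls here add no support.

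Among GFP+ pools none of the 3 genes passed a test between the stages, in a comparison that called 22.1% of genes higher and 29.6% lower, 51.7% in all. Fev was listed at 0 in all 12 GFP+ pools. Tph2 differed by 0.29 ± 0.43 (limma, adjusted p = 0.612) and Slc6a4 averaged 0.244 ± 0.392 RPKM at E13.5 and 0.0469 ± 0.115 at E10.5 (exact two-sided permutation p = 0.455). The GFP difference itself was larger at E13.5 than at E10.5 for Fev, by -4.24 ± 0.48 (limma, adjusted p = 1.77e-06), and for Tph2, by -2.31 ± 0.61 (limma, adjusted p = 0.0218). Such a stage difference was called in the lower direction for 1.90% of genes, in the higher direction for 3.93% and in all for 5.83%. For Slc6a4 it was -2.43 and was not tested. Tph2 and Fev entered the fit largely through the E13.5 GFP- pools, so these calls add no support.

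In the order of group means, E13.5 GFP- pools came first for all 3 genes. E10.5 GFP- pools were second for Fev, and E13.5 GFP+ pools were second for Tph2 and Slc6a4. The means after the first lay within the spread of the pools. Across genes within E13.5 GFP- pools, Fev had the highest level per length in 6 of 6 pools.

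**Figure D1:**
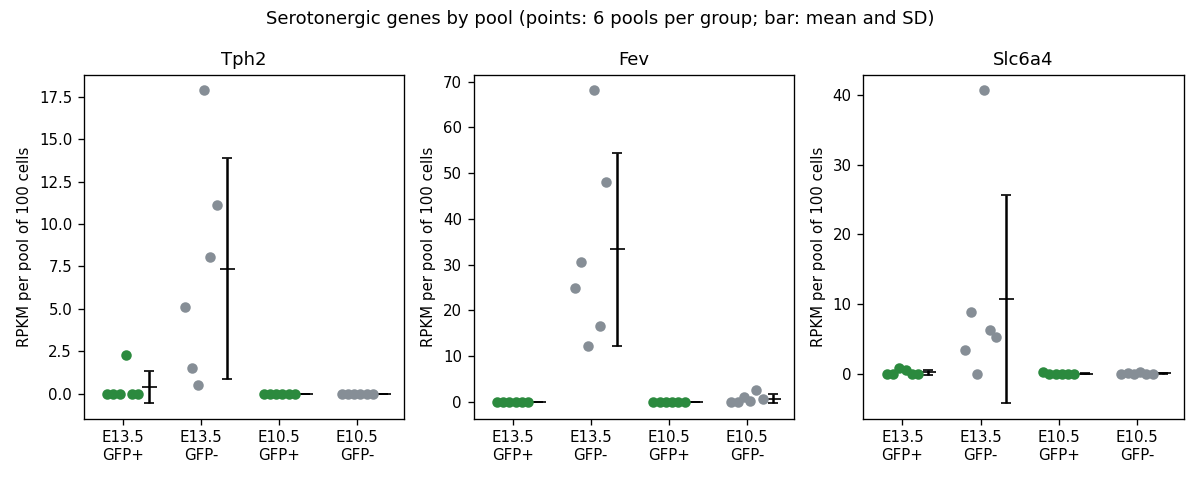
RPKM of Tph2, Fev and Slc6a4 (y axes, RPKM) in each pool of 100 cells, by stage and GFP class (x axes), with 6 points per group in pool order and the mean and SD beside them. The E13.5 GFP- pools spread from 12.2 to 68.1 RPKM for Fev, while all 12 GFP+ pools are at 0.

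The E13.5 GFP- pools differed widely among themselves. Pool 4 was the highest in all 3 genes, with 17.9 RPKM of Tph2, 68.1 of Fev and 40.6 of Slc6a4. Pool 3 was the lowest in all 3, with 0.517 RPKM of Tph2, 12.2 of Fev and 0 of Slc6a4. The highest Tph2 value was 34.6 times the lowest, whereas the highest Fev value was 5.60 times the lowest. Without pool 4 the means were 5.27 RPKM for Tph2, 26.4 for Fev and 4.80 for Slc6a4, so that 1 pool moved the Slc6a4 mean 2.24-fold.

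The pools between these extremes kept no common order. Pool 6 was second for Tph2 and Fev, with 11.1 and 48.03 RPKM, but 3 pools lay above its Slc6a4 of 5.33. Pool 2 was second for Slc6a4, with 8.94 RPKM, while its Tph2 was 1.51 and its Fev 30.5. Pool 5 had 8.05 RPKM of Tph2 with only 16.6 of Fev, and pool 1 had 5.13 with 24.8. The ratio of Tph2 to Fev therefore ran from 0.0425 in pool 3 to 0.484 in pool 5, and that of Slc6a4 to Fev from 0 in pool 3 to 0.597 in pool 4.

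The transcription factors listed for the serotonergic programme did not follow as a group: the sum of 8 was 159.2 RPKM in pool 4, the second lowest of the 6 pools, and highest in pool 6 at 183.6. Lmx1b, a LIM homeobox factor required for serotonergic neurons in mice, was highest in pools 4 and 6, at 12.49 and 8.12 RPKM, with 2.03 to 4.29 in the other 4. Nkx2-2, a homeobox factor of ventral progenitors, was lowest in pool 4, at 9.01 RPKM, with 27.7 to 53.6 in the other 5. Gchfr, the feedback regulator of GTP cyclohydrolase, was highest in pool 4 at 79.4 RPKM and lowest in pool 3 at 8.89. The 7 markers of GABAergic neurons summed to 214.6 RPKM in pool 4, with a lowest sum of 197.6 in pool 5 and a highest of 301.9 in pool 6. Among them the enzyme gene Gad2 was lowest in pool 4, at 67.3 RPKM, and highest in pool 6, at 121.03. The transcription factor gene Tal2 was highest in pools 6 and 4, at 14.2 and 13.9 RPKM, and the GATA factor gene Gata3 was second highest in pool 4, at 54.3 RPKM. Red blood cell genes summed to 9576 and 9778 RPKM in pools 3 and 5 and to at most 126.5 in the other 4. Microglial genes summed to 249 RPKM in pool 5 and at most 5.02 elsewhere, and endothelial genes to 51.8 in pool 4 and at most 5.01 elsewhere. Without pools 3 and 5 the E13.5 GFP differences were -5.35 for Fev (limma, adjusted p = 1.12e-10), -2.66 for Tph2 (exact permutation p = 0.00952) and -3.12 for Slc6a4 (exact permutation p = 0.00476).

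**Figure D2:**
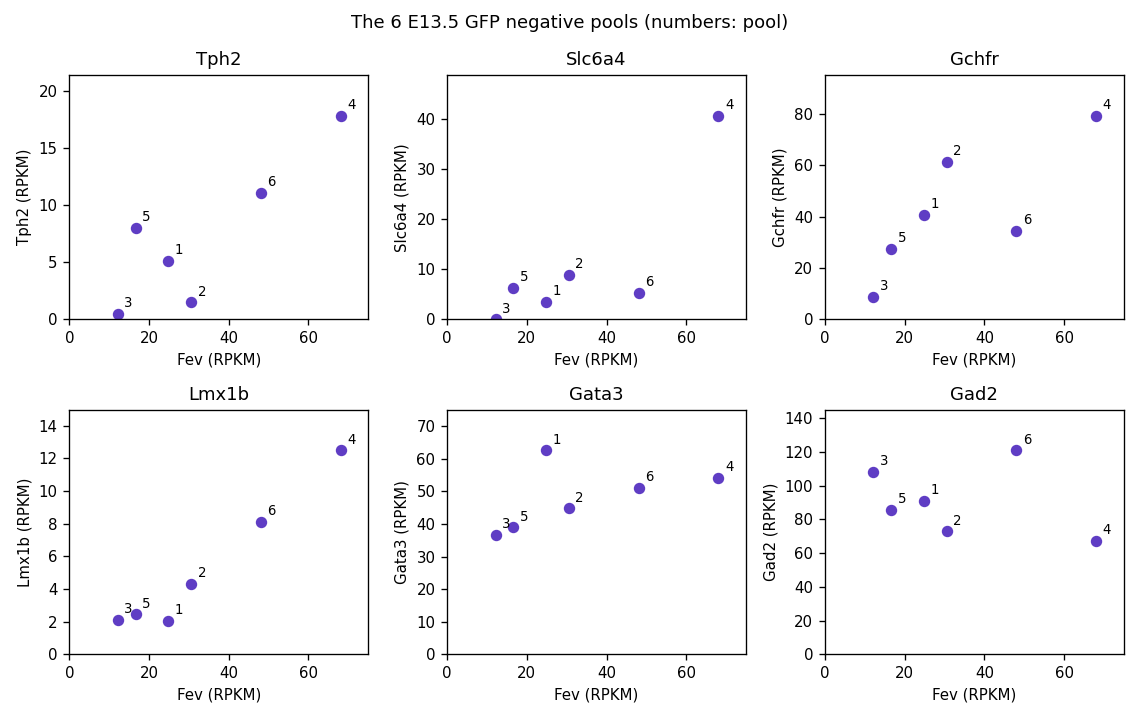
RPKM of 6 genes (y axes) against RPKM of Fev (x axes) in the E13.5 GFP- pools, each point a pool with its number. Pool 4 is highest in Fev (68.1 RPKM), Tph2, Slc6a4, Gchfr and Lmx1b and lowest in Gad2 (67.3 RPKM), which is highest in pool 6.

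Across all 24 pools, the tested genes whose log2(RPKM + 1) was most like that of Tph2 were Fev (Pearson r = 0.864), Diras2 (0.856), Gm16365 (0.852), Col25a1 (0.832) and Gchfr (0.820). For Fev they were Gchfr (0.931), Gata3 (0.921), the tetraspanin gene Tspan7 (0.882), Lancl3 (0.877) and Sphkap (0.876), which encodes a kinase anchoring protein. These are descriptions over pools that share their 4 groups and carry no p.

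The transcription factors of the serotonergic programme did not move together. Of 8 listed, all tested, 3 were lower in E13.5 GFP+ pools, 3 were higher and 2 did not pass, with a median log2 difference of -0.10 against -0.03 over all genes. In that comparison 3.74% of all tested genes were lower and 3.42% higher. Gata3 averaged 0.897 ± 0.845 RPKM in GFP+ pools and 48.1 ± 9.83 in GFP- pools (log2 difference -4.78 ± 0.38; limma, adjusted p = 1.3e-09). Gata2, the related factor that precedes it, averaged 0.353 and 24.03 RPKM in GFP+ and GFP- pools (-4.24), and Nkx2-2 3.24 and 31.01 RPKM (-3.08). Lmx1b averaged 65.5 ± 8.96 RPKM in GFP+ pools and 5.25 ± 4.24 in GFP- pools (3.65 ± 0.32; limma, adjusted p = 1.17e-08). The floor plate factor Foxa2 (1.35) and the midbrain and isthmus factor En1 (1.15) were higher too. Insm1 (-0.66) and En2 (0.46) did not pass.

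At E10.5 the same list held 3 higher, 4 lower and 1 not called in GFP+ pools, against 4.51% higher and 8.64% lower of all tested genes. Lmx1b (3.91), En1 (1.03) and Foxa2 were higher, and Nkx2-2 (-3.21), Gata2 (-2.93), Gata3 (-2.19) and Insm1 (-1.67) were lower. Gata2 and Gata3 thus differed between the GFP classes at a stage when Tph2 was at 0 in every pool. The GFP difference of Gata3 was larger at E13.5, by -2.59 ± 0.53 (limma, adjusted p = 0.00282), and that of Gchfr by -4.00 ± 0.67 (limma, adjusted p = 0.000313).

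Lmx1b, Foxa2 and En1 are also genes of dopamine neurons. Of 7 dopamine neuron markers, En1 and Lmx1a included, 6 were higher in E13.5 GFP+ pools, against 3.42% of all tested genes. Lmx1a drives the reporter used for the sort, so its call was fixed in advance. The summed level of the 7 was 558 to 992 RPKM in GFP+ pools and 22.02 to 62.6 in GFP- pools. Gata2 and Gata3 are also genes of midbrain GABAergic neurons. Of 7 markers of those, Gata2 and Gata3 included, 7 were lower, against 3.74% of all tested genes. Their sums were 4.70 to 20.1 RPKM in GFP+ pools and 198 to 302 in GFP- pools. The part of these neurons in the serotonergic genes' differences was not tested.

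Of 12 listed genes of monoamine synthesis, storage and breakdown and of pterin metabolism, 11 were tested, and 3 were higher, 1 lower and 7 not called in E13.5 GFP+ pools (median 0.28). Over all tested genes 3.42% were higher and 3.74% lower. Ddc, the decarboxylase that serotonin and dopamine neurons share, averaged 191 ± 48.2 RPKM in GFP+ pools and 44.6 ± 18.1 in GFP- pools (2.15 ± 0.30; limma, adjusted p = 1.96e-05). Slc18a2, the vesicular monoamine transporter, averaged 48.2 and 16.7 RPKM (1.53), and Gch1, the GTP cyclohydrolase that starts cofactor synthesis, 12.6 and 4.53 RPKM (1.64) in GFP+ and GFP- pools. Gchfr ran the other way, with 0.427 ± 0.810 RPKM in GFP+ pools and 42.1 ± 25.03 in GFP- pools (-4.79 ± 0.47; limma, adjusted p = 7.09e-08). Qdpr, Pts, Spr, Maoa, Maob, Slc18a1 and Slc29a4 did not pass, with log2 differences from -0.52 to 0.62.

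The counterparts of the members in dopamine neurons showed the opposite pattern. Th, the tyrosine hydroxylase, averaged 191 ± 71.6 RPKM in E13.5 GFP+ pools and 10.1 ± 8.17 in GFP- pools (4.57), and the dopamine transporter gene Slc6a3 averaged 31.9 ± 23.3 and 0.198 ± 0.485 RPKM (4.46). Tph1, the hydroxylase of peripheral tissues, was listed at 0 in GFP+ pools and averaged 0.646 RPKM in GFP- pools, which did not pass the test (-0.51). The noradrenaline transporter gene Slc6a2 was at 0 in all 12 pools of E13.5.

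Downstream genes of mature serotonergic neurons were low. Of 6 such genes 2 were tested and 0 called by limma at E13.5 (0 also at an unadjusted p under 0.05), and the vesicular glutamate transporter gene Slc17a8 averaged 0.576 RPKM in GFP+ and 2.23 in GFP- pools (-0.80; limma, adjusted p = 0.284). Of 14 serotonin receptor genes 3 were tested, Htr2b, Htr4 (-0.93) and Htr7 (-0.84), with 0 called by limma and 2 at an unadjusted p under 0.05.

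**Figure D3:**
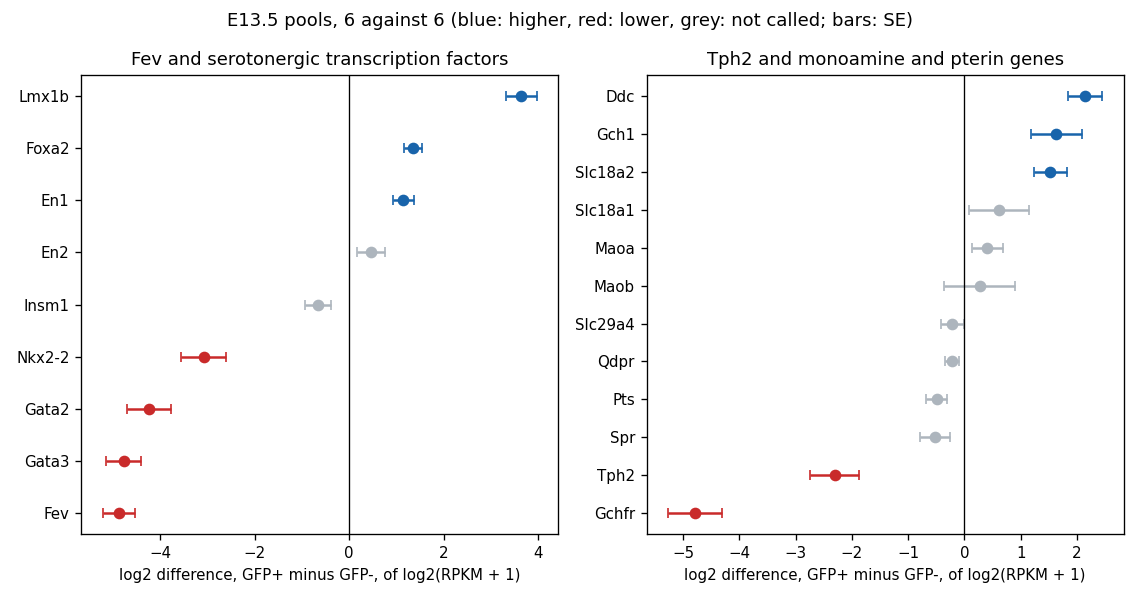
Log2 differences (x axes, GFP+ minus GFP-, of log2(RPKM + 1)) with SE at E13.5, 6 pools against 6, for Fev with the listed transcription factors and Tph2 with the listed monoamine and pterin genes (y axes). Fev, Gata3, Gata2, Nkx2-2, Gchfr and Tph2 are lower in GFP+ pools and Lmx1b, Foxa2, En1, Ddc, Slc18a2 and Gch1 higher.

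From E10.5 to E13.5 in GFP- pools, 2 of the 8 transcription factors rose, Gata3 (3.25) and En1 (0.70), and 2 fell, Foxa2 (-1.17) and Insm1 (-0.96), while the median over all genes was -0.11. Of all tested genes 19.7% rose and 26.9% fell, so a call in either direction was common. Of the 11 tested monoamine and pterin genes 4 rose, Gchfr (4.18), the monoamine transporter gene Slc29a4 (1.89), Ddc (1.31) and Slc18a2 (0.78). The 4 that fell were Spr (-2.22), Maob (-1.61), Maoa (-0.88) and Qdpr (-0.34). In the same comparison 9 of 10 pan-neuronal genes rose and 8 of 8 progenitor and cell cycle genes fell. Markers of cells from outside the neural tube fell as well: 5 of 6 tested red blood cell genes, 6 of 6 microglial genes and 5 of 5 tested mesenchymal genes were lower at E13.5. The red blood cell genes summed to 19.3 to 9778 RPKM in E13.5 GFP- pools (median 89.9) and 35.1 to 71175 in E10.5 GFP- pools (median 27481). The microglial genes summed to 0 to 249 RPKM at E13.5 (median 0.184) and 0 to 296 at E10.5 (median 170.4), and the mesenchymal genes to 0.0607 to 10.7 RPKM at E13.5 and 85.9 to 249.9 at E10.5. The part of these shifts in the members' stage difference was not tested.

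Markers of position were read beside these genes. Of 5 midbrain genes, which include Lmx1a itself, Foxa2 and En1, 4 were higher in E13.5 GFP+ pools (median log2 difference 1.35), and their sums were 252.6 to 359.3 RPKM in GFP+ pools and 88.2 to 160.5 in GFP- pools. The exception was Otx2, which marks the midbrain and regions in front of it and averaged 98.4 RPKM in E13.5 GFP+ pools and 73.6 in GFP- pools, a difference that did not pass (0.43; limma, adjusted p = 0.286). Of 8 isthmus genes 4 were lower in E13.5 GFP+ pools, among them Pax5, with 14.4 ± 12.6 RPKM in GFP+ and 145.2 ± 83.3 in GFP- pools (-3.80), and 1, Wnt1, was higher. Beside the midbrain and isthmus counts, 3.42% of all tested genes were higher and 3.74% lower. Of 3 listed hindbrain genes with a row, 1 was tested, Egr2, and it did not pass (0.66; limma, adjusted p = 0.42). The 3 genes summed to 0.189 to 5.16 RPKM in GFP+ pools and 0 to 3.76 in GFP- pools, and in GFP- pools Hoxb2 and Hoxb3 had means of 0.0301 and 0.338. Their part in the members' difference was not tested.

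In single cells the genes were rare. A cell was taken to hold a gene at an RPKM of 10 or more. Tph2 was held by 2 of 550 cells, Fev by 3 and Slc6a4 by 4, and 5 cells held at least 1 of them (0.909%, exact Clopper-Pearson 95% interval 0.296 to 2.11%). By stage these were 0 cells at E10.5, 1 of 90 at E11.5 (1.11%, interval 0.0281 to 6.04%), 4 at E12.5 (2.25%, interval 0.616 to 5.65%) and 0 at E13.5. Taken as 3 counts of the total, a count of 0 allows a share of up to 2.19% at E10.5 and 2.07% at E13.5, and the upper ends of the exact Clopper-Pearson intervals are 2.66% and 2.51%. Intervals and limits cover counting error only, and since the labels name no animal each stage is 1 sample and was not tested.

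All 4 E12.5 cells carried titles starting with F, 3.48% of the cells so named, against 0 of 63 with titles starting with C, which allows up to 4.76%. The reporter itself was held by 28.1% of cells at E12.5 and 26.9% at E13.5. Of E12.5 cells that did not hold the reporter, 3 held at least 1 of the 3 genes (2.34%). Of E13.5 cells that did not hold it 0 did, which allows up to 2.83%. This split rests on EGFP values of single cells and not on the sort of the pools. Lmx1a was held by more cells than EGFP, 50.6% at E12.5 and 50.3% at E13.5. Some cells that did not hold the reporter therefore held Lmx1a, and they cannot be taken as the class of the GFP- pools. The members were present in E13.5 GFP- pools. A share of up to 2.83% is compatible with the count of 0 in the E13.5 cells that did not hold the reporter.

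Cells F81 and F107, both at E12.5, held all 3 genes. F81 had 2169 RPKM of Tph2, 622 of Fev and 580 of Slc6a4. F107 had 707 RPKM of Tph2, 1640 of Fev and 1764 of Slc6a4. The order of the genes thus differed between the cells, and Tph2 led in F81. Both had EGFP at 0, while Lmx1a was 50.4 RPKM in F81 and 0 in F107.

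Each cell held 4 of the 8 listed transcription factors, Gata2, Gata3, Lmx1b and En1, where the E12.5 cells that held no member had a median of 1 and a highest count of 5. Gata2 was 287 RPKM in F81 and 130.9 in F107, and Gata3 401 and 227. Of the E12.5 cells that held no member, 8 (4.60%) held Gata2 and 12 (6.90%) held Gata3. Nkx2-2 was 4.93 RPKM in F81 and 0 in F107, and Insm1 and En2 were at 0 in both. Lmx1b was 17.6 and 245 RPKM, En1 58.7 and 209 RPKM and the isthmus factor Pax5 861 and 924 RPKM in F81 and F107. Pax5 was the only 1 of 8 listed isthmus genes that either cell held. It was also held by 13 (7.47%) of the E12.5 cells that held no member. Foxa2 (1.04 RPKM in F81 and 0 in F107) and Otx2 (0 in both) were below the limit.

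Of the 12 monoamine and pterin genes F81 held 7 and F107 held 6, where the E12.5 cells that held no member had a median of 1 and a highest count of 6. Ddc was 1175 RPKM in F81 and 1495 in F107, Slc18a2 978 and 665 RPKM, Gch1 82.9 and 573 RPKM and Gchfr 2126 and 863 RPKM. Of the E12.5 cells that held no member, 1 held Gchfr (0.575%), 8 Gch1 (4.60%), 27 Slc18a2 (15.5%) and 38 Ddc (21.8%). Maoa, the monoamine oxidase, was held only by F81 of the 2, at 265 RPKM, and the extraneuronal monoamine transporter gene Slc22a3 only by F107, at 48.6 RPKM. Of the genes that complete or recycle the pterin cofactor, Spr was at 0 in both, Pts was 51.2 RPKM in F81 and 0 in F107, and Qdpr was 0 in F81 and 157.5 RPKM in F107. Neither cell held any of the 6 genes of mature serotonergic neurons. Pan-neuronal genes were present, with 7 of 10 pan-neuronal genes in F81 and 10 in F107, and Stmn2 at 1263 and 838 RPKM. Th, Pitx3, Slc6a3, Gad1 and Mki67 were at 0 in both, and Gad2 was 48.3 RPKM in F81 and 0.503 in F107.

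The other 3 cells held 1 gene each. F115 (E12.5) had 51.2 RPKM of Fev with 748 of Gata2, 93.7 of Gata3, 263 of Insm1, which marks newly forming neurons, and 1637 of Ddc. Its Slc17a8 was 308 RPKM, against a highest value of 2.12 in E12.5 cells that held no member, while Tph2, Slc6a4, Gchfr and Slc18a2 were at 0. F48 (E12.5) had 109.5 RPKM of Slc6a4 and EGFP at 22.7, with Otx2 at 1114, Nr4a2 at 242, Foxa2 at 173.2, Lmx1a at 119.6 and Gata2 at 0. J80 (E11.5) had 36.2 RPKM of Slc6a4, with Barhl1, a gene of glutamatergic neurons, at 3250, Nr4a2 at 833, Lmx1a at 164.9 and Ddc at 0. Of the 8 listed transcription factors F48 held 3 and J80 held 1, with Lmx1b at 14.5 and 124.8 RPKM. Of the 12 monoamine and pterin genes F48 held 2, among them Slc18a2 at 152.9 RPKM, and J80 held 1. Slc6a4 alone was therefore found in cells that also held genes of other lineages, and Tph2 only beside Fev and Slc6a4 at this limit.

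Among markers of other neurons, 3 of 7 dopamine neuron genes were held by F48, 2 each by F81 and J80 and 1 by F107, and 3 of 7 GABAergic genes by F81 and 2 each by F107 and F115, Gata2 and Gata3 included. Kit, a receptor gene listed with the mast cell markers, was 444 RPKM in F81 and 194 in F107, and was held by 17.2% of the E12.5 cells that held no member. The microglial genes were at 0 in each, and 0 of 5 endothelial, 0 of 7 red blood cell and 0 of 3 noradrenergic genes reached 10 RPKM. Of 14 serotonin receptor genes, 13 were in the cell table and 0 reached 10 RPKM in any of the 5. Of 4 listed hindbrain genes in the cell table, 0 did.

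**Figure D4:**
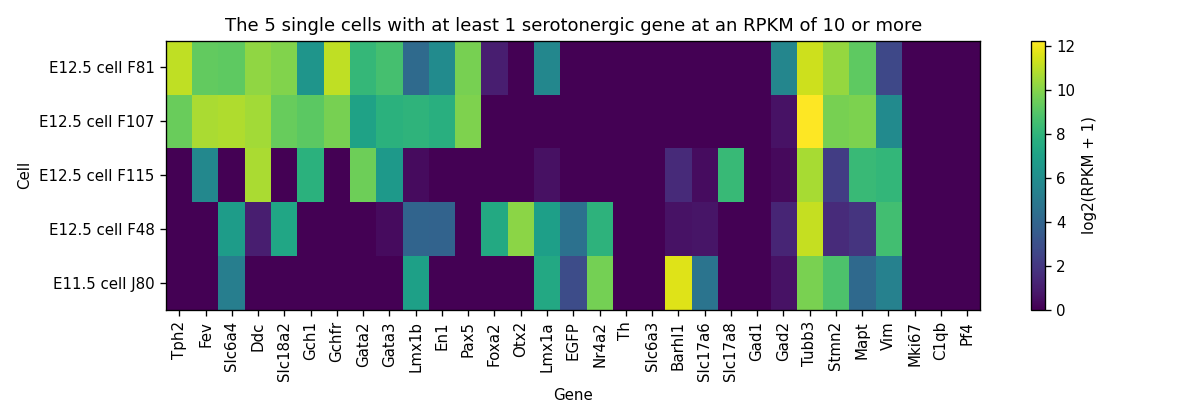
log2(RPKM + 1) (colour) of listed genes (x axis) in the 5 single cells that held Tph2, Fev or Slc6a4 (y axis). F81 and F107 share Tph2, Fev, Slc6a4, Ddc, Slc18a2, Gchfr, Gata2, Gata3 and Pax5. F48 and J80 carry Slc6a4, Lmx1a and Nr4a2. Lmx1a is also present in F81, and Slc18a2 in F48.

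The reporter gene's endogenous source followed the sort: Lmx1a averaged 56.6 RPKM in E13.5 GFP+ and 2.63 in GFP- pools, and 72.1 in E10.5 GFP+ and 1.55 in GFP- pools. Pools had an estimated depth between 1.30 and 3.67 M reads, single cells between 0.401 and 7.48 M, and 0 columns were identical. Pearson correlations across genes between pools of 1 group were 0.934 to 0.960.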

How the data were processed

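RNA was measured in 24 pools of 100 cells and 550 single cells, grouped by stage and GFP class from the labels. The deposited pool table holds RPKM, and the deposited cell table log2 values, which the authors formed after adding 0.001 to the RPKM, judging by the lowest value, and which were turned back into RPKM. The submitters' processing notes name STAR 2.3.0 and mm10. The counter, with its annotation or any filter, is not given in the sources used here.

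No read counts were used: depth was estimated from the smallest step between low values. Low values fell within 0.05 of whole reads in a median of 31.8% of cases per pool and 29.2% per cell, where chance gives 10%, so depths and read numbers are rough.

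Pools were fitted with limma 3.58.1 (R 4.3.3) on log2(RPKM + 1), with moderated variances and a trend, 4 group means, genes at 1 RPKM or more in at least 6 pools, and Benjamini-Hochberg adjustment over 15871 genes. Genes under an adjusted p of 0.05 were called. Slc6a4 missed the filter and was compared by exact permutation tests in R. Exact permutation p-values are also given for Tph2 and Fev where stated. Exact Clopper-Pearson intervals were computed with SciPy 1.17.1. The fit was tested on simulated data. Alternatives were other pseudocounts, filters and scalings, each pool left out, and other detection limits. Single cells were described without tests.

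The genes named are the 3 members, 23 lists and the 5 tested genes most correlated with each member that passed the filter. Too few cells held a member for likeness over cells (at least 10), so each such cell is named. A few listed genes are not reported here and are left out of their lists' counts. The members and lists were chosen with earlier results of these data known. Start regions are from RefSeq (GRCm38.p6).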

Additional observations from a re-analysis of the deposited data

Results flagged for a closer look

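In the E13.5 GFP+ pools, Tph2 was at 2.28 RPKM in pool 4, about 18 reads, and listed at 0 in the other 5. That pool also had 0.565 RPKM of Slc6a4. In the E13.5 GFP- pools, Slc6a4 was at 40.6 RPKM in pool 4, far above the next value of 8.94. In the E10.5 GFP+ pools, Slc6a4 was at 0.282 RPKM in pool 1, which is about 1 read, and listed at 0 in the other 5. In 2 of these 3 groups only 1 pool was above 0, so that pool stands apart whatever its value, and the rate of about 1 in 20 groups that chance gives does not apply to them.

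The GFP difference at E13.5 minus that at E10.5 passed its test for Tph2 (-2.31; limma, adjusted p = 0.0218) and for Fev (-4.24; limma, adjusted p = 1.77e-06). Both genes entered the fit largely through the E13.5 GFP- pools, so these calls add no support.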

How the results depend on the processing

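The GFP differences at E13.5 and the stage differences among GFP- pools kept their direction and their side of the threshold for Tph2, Fev and Slc6a4 under every alternative run. Tph2 reached 1 RPKM in exactly 6 pools, so it missed the filter wherever 1 of these was left out. Its unadjusted exact permutation p, as for Slc6a4, was then held to the same 0.05. With 1 pool left out, the p of its E13.5 GFP difference was at most 0.0173 by whichever test was used. With each pool left out in turn, the E13.5 GFP difference ran from -5.11 to -4.63 for Fev, -2.71 to -1.98 for Tph2 and -3.01 to -1.94 for Slc6a4, whose exact permutation p reached at most 0.0455. The number of called genes in that comparison ran from 933 to 1116, against 1135 with all pools. With wider filters Slc6a4 entered the limma fit, with adjusted p = 0.0015 (1 RPKM in at least 3 pools) and 0.00299 (no filter). It reached 1 RPKM in 5 pools, all of them E13.5 GFP- pools, so its entry through the wider filter adds no support. Leaving out E13.5 GFP- pools 3 and 5 together was chosen after seeing the data, and 769 genes were then called. The E10.5 GFP difference of Fev passed the threshold with a pseudocount of 0.1 (-2.12; limma, adjusted p = 0.0404), and the cause was not tested. In single cells, the E12.5 shares of Tph2, Fev and Slc6a4 were 0% among cells with titles starting with C, and the E11.5 share of Slc6a4 was 0% at a limit of 50 RPKM, by construction of a higher limit. Rescaling each pool to the same sum of RPKM moved the median of all genes in the GFP- stage comparison from -0.11 to 0.01. No paired analysis was possible because the labels give the pools no shared numbers, embryos or litters. At E10.5, of 36 member values 29 were 0, and the other 7 rest on 1 to 9 reads. Median estimated depths were 1.81 M reads in E10.5 GFP+ and 2.51 M in E10.5 GFP- pools. At E13.5 they were 2.96 M in GFP+ and 3.04 M in GFP- pools. The part of depth in the E10.5 values was not tested.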

Other observations

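Of 1238 genes at 10 RPKM or more in both F81 and F107, 8 were held by at most 2% of the other E12.5 cells. They were the 3 members, Gchfr, and Calcr, Hs6st2, Pde2a and Adamts18, a set chosen after the values were seen and given with no test. Calcr, which encodes the calcitonin receptor, was 1489 RPKM in F81 and 1735 in F107 and was held by 3 of the other cells. In pools, Calcr averaged 0.521 ± 1.16 RPKM in E13.5 GFP+ and 23.9 ± 20.8 in GFP- pools, and in GFP- pools it was 4.48 RPKM in pool 4, where the members were highest, and 52.6 in pool 6. F115, F48 and J80 held 0 of the 5 genes that are no members.

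The mean of the 6 E13.5 GFP- pools was 0.512% of the mean of F81 and F107 for Tph2, 2.95% for Fev and 0.919% for Slc6a4. The tables were normalized separately and the stages differ, so these are levels side by side and not shares of cells.

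Below the limit of 10 RPKM, J85 (E11.5) had 7.56 RPKM of Slc6a4 and F110 (E12.5) had 1.72. About 1 read of a member was present in each of the E12.5 cells F80, F101, F109 and C22, and F83 had 1 read each of Tph2 and Fev.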
